A study of Mus musculus with 8 samples.

Results

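The genes described here are 36 genes of maturing cortical neurons, followed in the cortex of mice without the neuronal RNA-binding protein Nova2 and of wild type mice. They were listed by name with Nova2 KO and wild type values of these arrays in view. The values used were the median signal of each gene and how its probe sets moved together, so the differences between the groups are given for these genes as a description. Where members are counted among the calls of the fit over all genes, the share of all genes called stands beside the count, and nothing is read from it. A gene value, the median log2 signal over the probe sets that named that gene alone, was available for 34 of the 36, among 11992 genes in all. No probe set was named for Nptxr, the neuronal pentraxin receptor, or for Acan, the aggrecan core protein, and both are left out of every count of signals below.

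The Nova2 KO group held 4 mice with a knockout of Nova2, and the wild type group held 4 mice. All 8 were of the CD1 strain, and cortex was taken at postnatal day 10. Total RNA of each mouse was read on 1 exon array, which carries several probe sets along each gene. Which part of Nova2 was removed is not given here by the labels, and no Cre driver or cell type restriction is stated there.

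Between birth and weaning, cortical neurons stop growing axons over long distances and take up mature functions. They fill their axons with neurofilaments, cluster receptors at synapses, wrap some cells in a perineuronal net of proteoglycan and hyaluronan, and build up calmodulin-dependent kinases and phosphatases that read calcium. Genes of this kind are typically low in the newborn cortex and rise over the following weeks. Proteins of the growing neuron, such as doublecortin, decline over the same period.

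In the Nova2 KO cortex, 22 of the 34 measured genes lay below wild type, with a median difference of -0.086 log2, against 0.021 log2 over all genes. In the table as a whole, 44.6% of genes had a difference below 0. Single differences ran from -1.04 log2 for Lmtk3 to 0.28 log2 for Sncb, on both sides of wild type. In the limma fit over all genes, 1 member, Lmtk3, was among the genes called lower at an adjusted p of 0.05, which made up 0.117% of all genes. Without wild type 1 no member was called, and Lmtk3 then differed by -0.98 log2. An unadjusted p under 0.05 was reached by 10 members that were lower, where 3.72% of all genes did so, and by 1 that was higher, where 7.86% did so. In 3 members, Lmtk3, Cntnap1 and Itpka, all 4 Nova2 KO values lay below all 4 wild type values, a pattern found in 2.5% of all genes. One member, Ppp3cb, showed the opposite order, found in 5.06% of all genes. Because the genes were listed from this contrast, these counts describe the list and carry no weight as evidence. In bulk cortex, fewer cells of a type and less RNA per cell cannot be told apart.

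**Figure D1:**
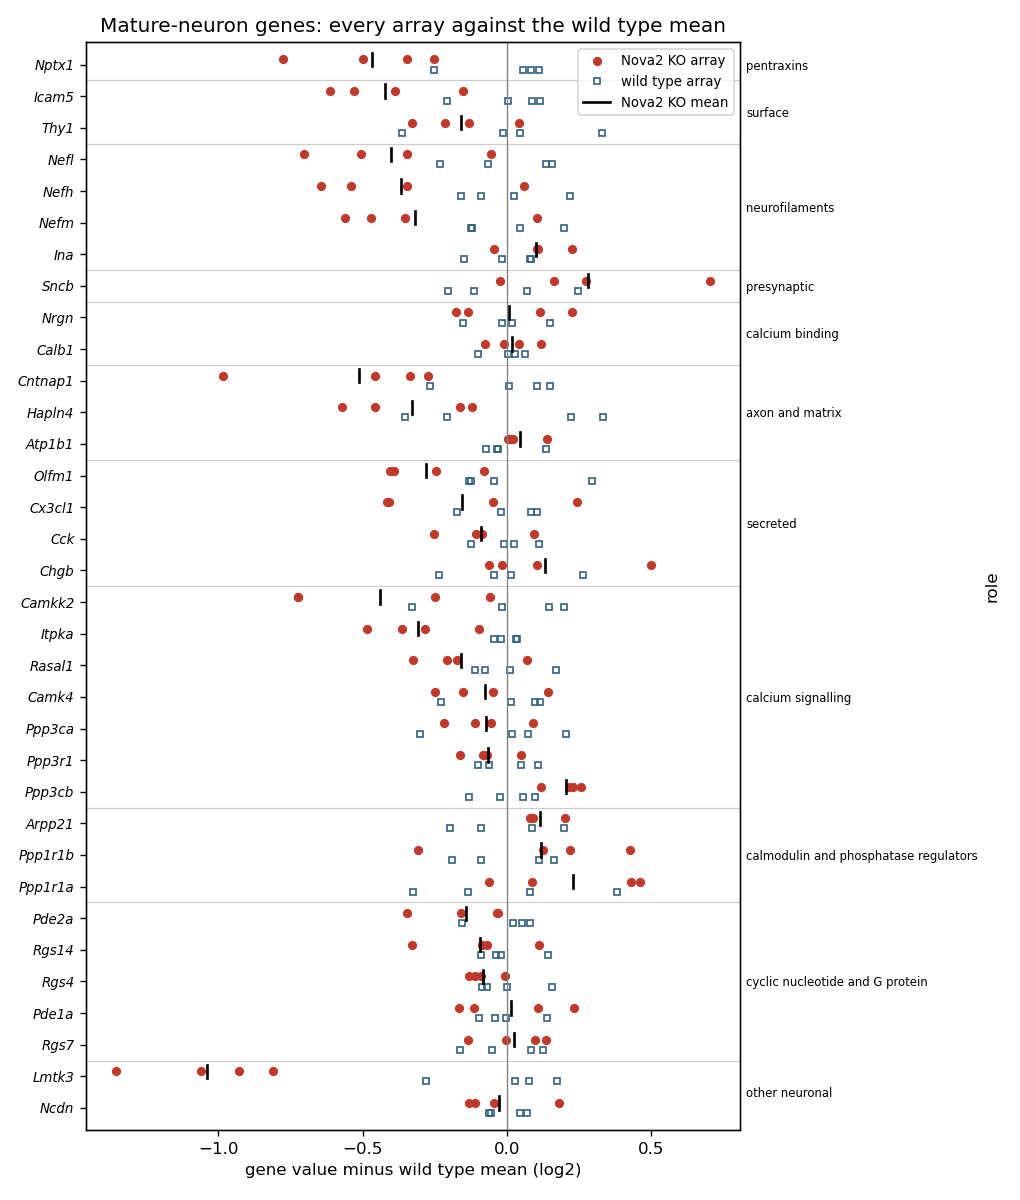
Gene values of the 34 measured mature-neuron genes on every array, as the difference from the wild type mean of the same gene (log2), grouped by role, with filled circles for Nova2 KO arrays, open squares for wild type arrays and a black bar for the Nova2 KO mean. By mean, Lmtk3 lies lowest at -1.04 log2 and Sncb highest at 0.28 log2.

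The overall signal of the arrays covered a similar range in both groups. Array medians ran from 7.06 to 7.37 log2 in Nova2 KO and from 7.02 to 7.37 log2 in wild type, with the lowest medians on the array numbered 4 of each group. Values at the floor of about 4 log2 made up 0.991% to 2.20% of a Nova2 KO array and 1.01% to 3.34% of a wild type array. Among the listed markers of cortical neurons, 7 of 10 were measured. The dimmest, the cortical transcription factor Tbr1, was at 7.82 log2 in Nova2 KO and 7.59 log2 in wild type, well above the floor. Their median difference was 0.036 log2, with 3 of 7 below 0. None passed in limma, and 1, Neurod6 (0.29 log2, SE 0.13), had an unadjusted p under 0.05. The next lowest p was that of Slc17a7 (-0.19 log2, SE 0.11).

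Within each array, the members were compared with all genes by the median deviation from each gene's mean over the 8 arrays. Relative to all genes, the members stood at 0.00011, -0.14, -0.067 and -0.041 log2 on Nova2 KO arrays 1 to 4, against 0.057, 0.022, 0.036 and 0.072 log2 on wild type arrays 1 to 4. Nova2 KO 1 was thus the array of its group nearest to wild type. Array Nova2 KO 4 held the lowest value of its group in 14 of the 34 genes and Nova2 KO 3 in 12, and Nova2 KO 3 also held the highest in 17. Wild type 4 held the lowest value of its group in 20. Without both arrays numbered 4, 25 of the 34 genes lay below 0 and the median difference was -0.10 log2.

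Lmtk3, a membrane-anchored kinase of neurons, had the largest difference of the list. It is 1 of 3 members on chromosome 7, which also carries Nova2. The others are Acan, without a gene value, and Pde2a (-0.14 log2, SE 0.11, groups overlapping). The part of this position in the values of Lmtk3 was not tested. The gene value of Lmtk3 was 8.72, 8.85, 8.97 and 8.42 log2 on Nova2 KO arrays 1 to 4, against 9.95, 9.86, 9.81 and 9.50 log2 on the wild type arrays. The means were 8.74 ± 0.23 log2 in Nova2 KO and 9.78 ± 0.20 log2 in wild type (SD, n = 4 each), so that wild type was 2.05-fold above Nova2 KO. All 23 of its probe sets were lower in Nova2 KO, by 0.41 to 1.54 log2 in size, and in 18 the groups did not overlap. The probe sets with the smallest differences were the brightest one, at 10.8 log2 in Nova2 KO and 11.3 log2 in wild type, and a further bright one (10.1 and 10.6 log2). Both other LMTK kinases were below wild type, Aatk by -0.18 log2 (SE 0.13, limma adjusted p = 0.611) and Lmtk2 by -0.13 log2 (SE 0.16, adjusted p = 0.797), and neither passed.

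Nptx1, a secreted neuronal pentraxin that helps cluster AMPA receptors, lay lower in Nova2 KO. Its gene value was 9.31, 9.15, 9.40 and 8.88 log2 in Nova2 KO and 9.71, 9.73, 9.76 and 9.40 log2 in wild type. The difference was -0.47 log2 (SE 0.13), and the groups touched at Nova2 KO 3 and wild type 4. All 8 probe sets were lower, by 0.19 to 0.73 log2 in size. Of the AMPA receptor partners, Gria1 differed by 0.046 log2 (SE 0.11), Gria4 by 0.041 log2 (SE 0.13) and Gria2 by -0.015 log2 (SE 0.11). None of the 3 measured partners passed in limma, and none had an unadjusted p under 0.05.

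Icam5, or telencephalin, is an adhesion molecule of the dendrites of forebrain neurons. It measured 9.50, 9.12, 9.27 and 9.04 log2 in Nova2 KO and 9.66, 9.74, 9.77 and 9.45 log2 in wild type. Its difference was -0.42 log2 (SE 0.12), with Nova2 KO 1 just above wild type 4. Each of its 16 probe sets was lower in Nova2 KO, and in 7 the groups did not overlap. The surface glycoprotein Thy1 differed by -0.16 log2 (SE 0.14), with 8 of 9 probe sets below 0. Among relatives of the surface and secreted members, 4 of 5 measured genes were below 0, with a median of -0.021 log2, and none passed in limma or had an unadjusted p under 0.05. The lowest p belonged to Olfm3 (-0.22 log2, SE 0.12).

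Neurofilaments are built from Nefl, Nefm and Nefh, the light, medium and heavy chains, together with alpha-internexin, encoded by Ina. The heavy chain Nefh measured 8.74, 8.54, 9.15 and 8.44 log2 in Nova2 KO and 9.11, 9.00, 8.93 and 9.30 log2 in wild type. The medium chain Nefm measured 10.22, 10.10, 10.67 and 10.01 log2 in Nova2 KO and 10.77, 10.45, 10.44 and 10.61 log2 in wild type. Nefl had 10.32, 10.02, 9.67 and 9.86 log2 in Nova2 KO and 10.53, 10.51, 10.14 and 10.31 log2 in wild type. In each of the 3 chains the groups overlapped, with Nova2 KO 3 above part of wild type for Nefh and Nefm and Nova2 KO 1 for Nefl. The differences were -0.37 log2 (SE 0.15) for Nefh, -0.32 log2 (SE 0.14) for Nefm and -0.40 log2 (SE 0.14) for Nefl. Ina stood apart from them at 10.97, 10.98, 11.10 and 10.82 log2 in Nova2 KO and 10.95, 10.85, 10.95 and 10.72 log2 in wild type, a difference of 0.10 log2 (SE 0.10).

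The probe sets of the chains did not bear these gene values out equally. For Nefh, 13 of 15 probe sets were below 0, in 10 the groups did not overlap, and the median over its probe sets was -0.61 log2. For Nefm, 8 of 9 were below 0, with a median of -0.15 log2. For Nefl, the probe set in the middle of the range of levels differed by -0.60 log2, while the other 6 lay between -0.19 and 0.34 log2 and the median over its probe sets was -0.054 log2. The mean over probe sets gave -0.091 log2 for Nefl. Other intermediate filament genes, among them Gfap of astrocytes (0.25 log2, SE 0.15) and the lamin gene Lmna (-0.19 log2, SE 0.11), had 5 of 8 below 0 and a median of -0.029 log2. None of these 8 passed in limma or had an unadjusted p under 0.05.

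**Figure D2:**
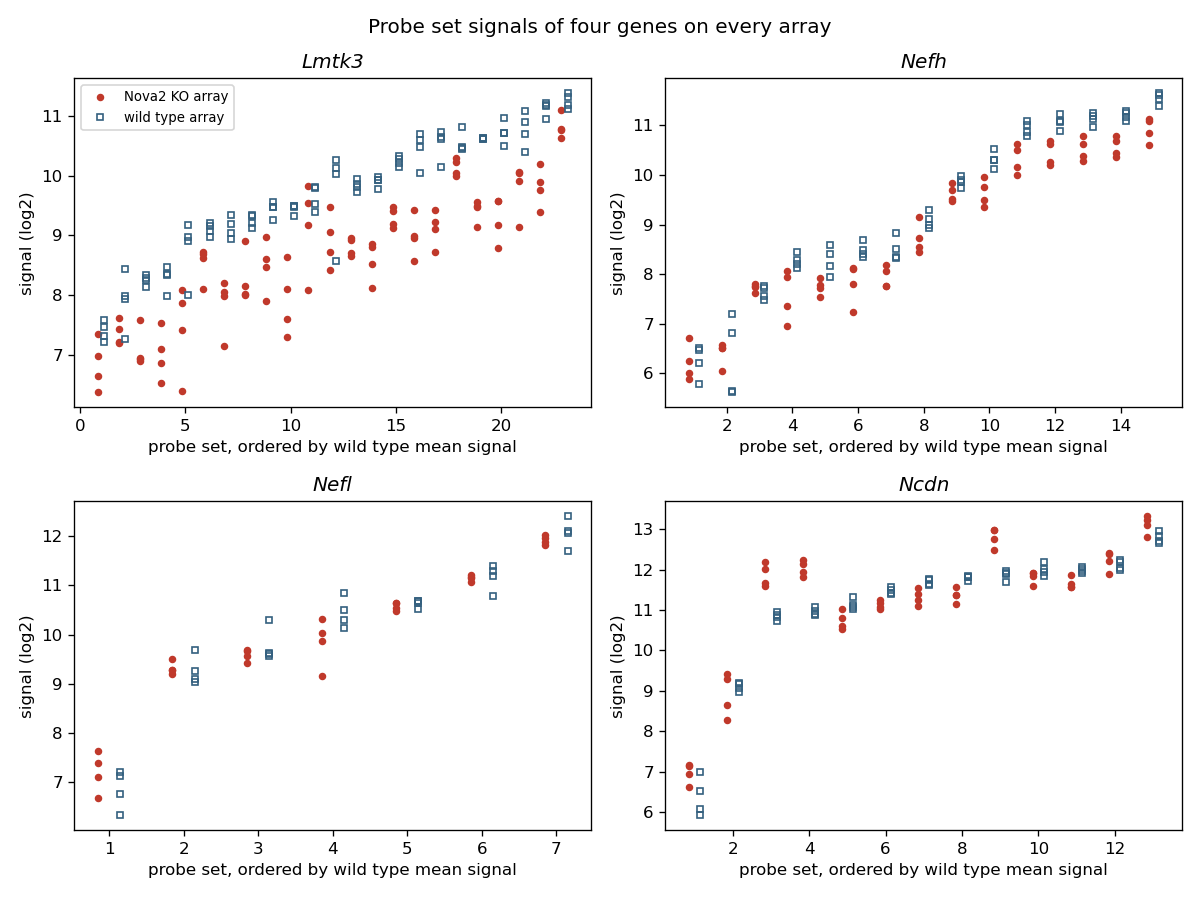
Signals (log2) of all kept probe sets of Lmtk3, Nefh, Nefl and Ncdn on every array, ordered by wild type mean signal, with filled circles for Nova2 KO arrays and open squares for wild type arrays. Lmtk3 and most Nefh probe sets are lower in Nova2 KO, the Nefl groups overlap in all 7 probe sets, and Ncdn holds 3 probe sets that are higher by 0.93 to 1.08 log2 beside others that are lower.

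A second summary of the probe sets was added after the data had been seen. Here each probe set was first centred on its own mean over the 8 arrays, so that its brightness no longer decided whether it lay in the middle. The gene value was still a median, now of the centred signals. On this summary 23 of 34 members were below 0, with a median of -0.088 log2. Nefl was at -0.046 log2, Nefm at -0.24 log2 and Nefh at -0.53 log2. The calcium-dependent kinase gene Camkk2 was at -0.24 log2, Rasal1 at -0.25 log2, Ppp3cb at 0.072 log2 and Sncb at 0.10 log2. Chgb changed sign, to -0.051 log2. In 7 members, Nptx1, Icam5, Nefh, Cntnap1, Itpka, Rgs4 and Lmtk3, all Nova2 KO values then lay below all wild type values, which was true of 2.93% of all genes. The opposite order was found in 0 members, with the groups of Ppp3cb now overlapping, and in 795 of all 11992 genes. These counts too come from the contrast that chose the genes.

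**Figure D3:**
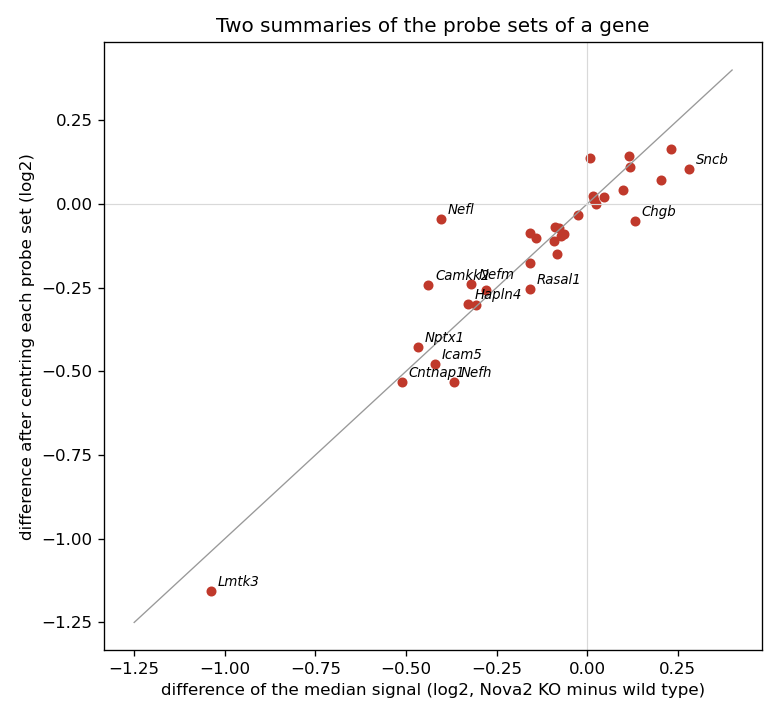
Difference between Nova2 KO and wild type (log2) of the 34 members by the median signal of a gene (x axis) and after each probe set was centred on its own mean (y axis), with a diagonal at equal values. Nefl moves to -0.046 log2, while Lmtk3 stays lowest at -1.16 log2.

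Cntnap1, also called Caspr, is the axonal protein of the paranodal junction beside the node of Ranvier. It measured 8.46, 8.58, 8.65 and 7.93 log2 in Nova2 KO and 8.93, 9.07, 9.02 and 8.65 log2 in wild type. The highest Nova2 KO value lay just under the lowest wild type value, and the difference was -0.51 log2 (SE 0.16). All 33 kept probe sets were lower in Nova2 KO, by 0.11 to 0.89 log2 in size. Of 9 other genes of the paranode and the neighbouring juxtaparanode, 7 were below 0, with a median of -0.16 log2. None passed in limma, and 1, the 4.1 protein gene Epb41l3 (-0.23 log2, SE 0.10, adjusted p = 0.411), had an unadjusted p under 0.05. The potassium channels Kcna1 and Kcna2 were at -0.50 log2 (SE 0.24) and -0.22 log2 (SE 0.12).

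Markers of oligodendrocytes, the cells that form the paranode with the axon, were lower in the same arrays. Of 11 listed, 10 were measured and 9 lay below 0, and the median was -0.43 log2. In limma 7 were lower with an unadjusted p under 0.05, where 3.72% of all genes were. Mal (-1.03 log2, SE 0.16) and Mog (-0.77 log2, SE 0.13) passed over all genes in limma with adjusted p of 0.0251 and 0.0301. Of all genes, 0.117% were called lower. Like the others, this list was chosen with earlier results of these data known, and its counts are a description. The mean level of the 10 markers was 8.64 to 8.89 log2 in Nova2 KO and 9.09 to 9.24 log2 in wild type, so the groups did not overlap. The dimmest of them was Mal in Nova2 KO, at 7.62 log2, and Olig2 in wild type, at 8.10 log2, both above the floor. The part of the myelin markers in the axonal differences was not tested.

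Hapln4, a link protein that ties proteoglycans to hyaluronan around neurons, was the dimmest member. It measured 6.77, 6.47, 6.81 and 6.36 log2 in Nova2 KO and 7.27, 6.58, 7.15 and 6.72 log2 in wild type, and wild type 2 and wild type 4 lay among the Nova2 KO values. The difference was -0.33 log2 (SE 0.16), with 8 of 10 probe sets below 0. Among other genes of the hyaluronan matrix, 4 of 8 measured were below 0. The versican gene Vcan was at 0.38 log2 (SE 0.14, limma adjusted p = 0.334). The brevican gene Bcan was at -0.23 log2 (SE 0.11, limma adjusted p = 0.461). None of the 8 passed, and 1 had an unadjusted p under 0.05.

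The sodium-potassium pump subunit Atp1b1 was at 12.63, 12.51, 12.52 and 12.50 log2 in Nova2 KO and 12.46, 12.46, 12.63 and 12.42 log2 in wild type. Its difference of 0.047 log2 (SE 0.093) was within the spread of either group. Of 5 other measured pump subunits and regulators, 1 was below 0 (Atp1b2, -0.14 log2, SE 0.091), and the median was 0.11 log2. None passed in limma or had an unadjusted p under 0.05.

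Among secreted proteins and peptides, Olfm1, a glycoprotein of neurons, lay lower in Nova2 KO. It measured 10.93, 10.77, 10.61 and 10.62 log2 in Nova2 KO and 11.31, 10.89, 10.88 and 10.97 log2 in wild type. The difference was -0.28 log2 (SE 0.12), and 14 of 15 probe sets were below 0. The chemokine Cx3cl1, by which neurons signal to microglia, differed by -0.16 log2 (SE 0.15), with all 13 probe sets below 0 but none in which the groups were apart. Cck, the cholecystokinin peptide gene, differed by -0.088 log2 (SE 0.10). Chgb, a granin of dense-core vesicles, measured 9.75, 9.62, 10.14 and 9.58 log2 in Nova2 KO and 9.91, 9.66, 9.60 and 9.41 log2 in wild type. It differed by 0.13 log2 (SE 0.14), and its probe sets were split, with 7 of 15 below 0. Of 11 other measured genes of dense-core vesicles, 7 were below 0 (median -0.021 log2). None passed in limma, and 1, the release factor Cadps2 (-0.26 log2, SE 0.099), had an unadjusted p under 0.05.

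Sncb, beta-synuclein of the presynaptic terminal, was the highest member in the difference. It measured 10.79, 10.61, 11.34 and 10.91 log2 in Nova2 KO and 10.70, 10.43, 10.52 and 10.88 log2 in wild type, and only Nova2 KO 3 lay clearly above wild type. The difference was 0.28 log2 (SE 0.15), with 4 of 7 probe sets above 0. Nrgn, or neurogranin, which binds calmodulin in dendritic spines, measured 12.17, 11.93, 11.88 and 12.28 log2 in Nova2 KO and 12.04, 11.91, 12.08 and 12.21 log2 in wild type, a difference of 0.0076 log2. Calb1, the calcium buffer calbindin, measured 9.44, 9.37, 9.57 and 9.49 log2 in Nova2 KO and 9.35, 9.46, 9.48 and 9.51 log2 in wild type, a difference of 0.019 log2. For both, the arrays of either group were interleaved. In the list of synucleins, calmodulin genes and neurogranin relatives, 4 of 8 genes were measured and 1 was below 0, the calmodulin gene Calm3 (-0.28 log2, SE 0.092, limma adjusted p = 0.283), on only 3 probe sets. In the list of neuronal calcium-binding proteins, 2 of 6 measured genes were below 0, Necab2 (-0.35 log2, SE 0.10, limma adjusted p = 0.251) and hippocalcin, Hpca (-0.30 log2, SE 0.0998, adjusted p = 0.284). None of these passed, and the 3 named had an unadjusted p under 0.05.

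Calcium signalling was represented by kinases, the phosphatase calcineurin and their partners. Camkk2, which activates calmodulin-dependent kinases, measured 9.58, 9.39, 8.92 and 8.92 log2 in Nova2 KO and 9.62, 9.84, 9.79 and 9.31 log2 in wild type. The difference was -0.44 log2 (SE 0.17), with wild type 4 among the Nova2 KO values, and 25 of 29 probe sets were below 0 with a median of -0.21 log2. Itpka, which phosphorylates inositol trisphosphate and binds actin in spines, measured 9.69, 9.42, 9.30 and 9.50 log2 in Nova2 KO and 9.77, 9.74, 9.82 and 9.82 log2 in wild type. Its wild type values lay within a narrow band and all above Nova2 KO, for a difference of -0.31 log2 (SE 0.10), and all 9 kept probe sets were lower. Rasal1, a calcium-sensing Ras GTPase-activating protein, differed by -0.16 log2 (SE 0.11), with 25 of 26 probe sets below 0. Camk4, a nuclear calmodulin-dependent kinase, differed by -0.077 log2 (SE 0.12).

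Calcineurin subunits went both ways by small amounts. The catalytic subunit Ppp3cb measured 12.06, 12.03, 12.01 and 11.92 log2 in Nova2 KO and 11.86, 11.90, 11.78 and 11.67 log2 in wild type, a difference of 0.21 log2 (SE 0.094). Of its 17 probe sets, 11 were above 0. The other catalytic subunit Ppp3ca differed by -0.073 log2 (SE 0.12) and the regulatory subunit Ppp3r1 by -0.065 log2 (SE 0.096). Of 11 other measured calcineurin subunits, regulators and targets, 7 were below 0 (median -0.069 log2). None passed in limma, and 1, the transcription factor Nfatc2 (-0.28 log2, SE 0.12), had an unadjusted p under 0.05.

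Other calmodulin-dependent kinases were below 0 in 9 of 10 genes, with a median of -0.079 log2. None passed, and 3 had an unadjusted p under 0.05: Camk2a (-0.35 log2, SE 0.11, limma adjusted p = 0.266), Pnck (-0.22 log2, SE 0.091, adjusted p = 0.375) and Camkk1 (-0.22 log2, SE 0.096, adjusted p = 0.403). Among inositol phosphate kinases and phosphatases 4 of 6 were below 0 (median -0.044 log2), with 0 passing in limma and 0 at an unadjusted p under 0.05. Among Ras GTPase-activating proteins 5 of 7 were below 0 (median -0.14 log2). None of the 7 passed in limma, and Rasa4 (-0.30 log2, SE 0.13) had an unadjusted p under 0.05.

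The regulators of calmodulin and protein phosphatase 1 all lay above wild type. Ppp1r1a, or inhibitor 1, measured 9.74, 9.59, 10.11 and 10.08 log2 in Nova2 KO and 9.51, 9.73, 9.32 and 10.03 log2 in wild type, for a difference of 0.23 log2 (SE 0.16). Ppp1r1b, which encodes DARPP-32 and is most abundant in striatal neurons, measured 10.86, 10.43, 11.16 and 10.95 log2 in Nova2 KO and 10.84, 10.54, 10.64 and 10.90 log2 in wild type, a difference of 0.12 log2 (SE 0.15). Arpp21, a phosphoprotein that binds calmodulin, measured 10.50, 10.49, 10.62 and 10.50 log2 in Nova2 KO and 10.33, 10.61, 10.50 and 10.21 log2 in wild type, a difference of 0.12 log2 (SE 0.11). The groups overlapped in each, yet the probe sets leaned one way, with 39 of 42 above 0 for Arpp21, 12 of 14 for Ppp1r1b and 8 of 9 for Ppp1r1a. In the protein phosphatase 1 list, 5 of 9 genes were above 0, none passed in limma, and the catalytic subunit Ppp1cb (0.23 log2, SE 0.10) had an unadjusted p under 0.05.

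Markers of the striatum, which borders the cortex, were measured in 6 of 10 listed genes, Ppp1r1b included, and 4 were below 0 (median -0.13 log2). Rasd2, a small GTP-binding protein of striatal neurons, was at 8.61 ± 0.23 log2 in Nova2 KO and 9.15 ± 0.037 log2 in wild type (SD, n = 4 each; limma adjusted p = 0.136). The list averaged 9.50 to 9.82 log2 in Nova2 KO and 9.75 to 9.84 log2 in wild type. Hippocampal markers were measured in 2 of 8 genes, both below 0, with Wfs1 at -0.45 log2 (SE 0.11, limma adjusted p = 0.185). Thalamic markers were measured in 5 of 6, with 4 below 0 and a median of -0.035 log2. The thalamic marker above 0 was Prkcd (0.27 log2, SE 0.088, limma adjusted p = 0.283). All 4 of its Nova2 KO values lay above all 4 wild type values, an order found in 5.06% of all genes. The opposite order, found in 2.5% of all genes, held for Rasd2, Gng7 and Wfs1. No marker of these regions passed in limma, and Rasd2, Wfs1 and Prkcd had an unadjusted p under 0.05. The part of dissection in the members' values was not tested.

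Cyclic nucleotide and G protein regulators differed by -0.14 to 0.024 log2. Pde1a and Pde2a are phosphodiesterases that break down cyclic nucleotides. Pde1a measured 10.13, 9.78, 9.73 and 10.01 log2 in Nova2 KO and 9.90, 9.86, 10.04 and 9.80 log2 in wild type, a difference of 0.016 log2 (SE 0.11). Pde2a differed by -0.14 log2 (SE 0.11), with 34 of 38 probe sets below 0. Rgs4, Rgs7 and Rgs14 shorten signalling by G protein alpha subunits. Rgs7 measured 9.40, 9.17, 9.44 and 9.30 log2 in Nova2 KO and 9.25, 9.43, 9.39 and 9.14 log2 in wild type, a difference of 0.024 log2 (SE 0.10). Rgs4 differed by -0.084 log2 (SE 0.095), with all 7 probe sets below 0, and Rgs14 by -0.092 log2 (SE 0.11). Other phosphodiesterases were below 0 in 6 of 14 genes (median 0.039 log2), none passed in limma, and Pde8b (-0.27 log2, SE 0.093) had an unadjusted p under 0.05. Other RGS family genes and partners were below 0 in 8 of 14 (median -0.024 log2). None passed, and 2 had an unadjusted p under 0.05: Rgs10 (0.39 log2, SE 0.12, limma adjusted p = 0.263) and the receptor Gpr158 (-0.46 log2, SE 0.15, adjusted p = 0.279).

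Ncdn, which encodes neurochondrin, a cytoplasmic protein of dendrites, differed by -0.026 log2 in its gene value, but its probe sets were divided. The mean over its probe sets gave 0.14 log2. Its gene value averaged 11.66 ± 0.14 log2 in Nova2 KO and 11.69 ± 0.067 log2 in wild type (SD, n = 4 each). Of 13 probe sets, 3 were higher in Nova2 KO without overlap and 5 were lower without overlap. Probe set 4642413 read 12.23, 11.82, 12.15 and 11.94 log2 in Nova2 KO and 11.07, 10.99, 10.88 and 10.89 log2 in wild type, a difference of 1.08 log2. Probe sets 4336723 and 4790637 differed by 1.02 and 0.93 log2. In contrast, probe set 5476838 read 11.57, 11.37, 11.38 and 11.14 log2 in Nova2 KO and 11.81, 11.72, 11.83 and 11.82 log2 in wild type, a difference of -0.43 log2. Which exons they cover, and whether an overlapping transcript is read, was not analysed here.

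Exon usage is an index formed on each array by subtracting the gene value from a probe set's log2 signal, and it was available for 551 probe sets of 33 members. One of the 551, probe set 4642413 of Ncdn, was among those called in the limma fit over all probe sets, which made up 0.0133% of the total. Its index was higher by 1.10 log2 in Nova2 KO. The largest index differences after Arpp21 (1.29 log2) and Ncdn were those of Ppp3r1 (1.06 log2), Camkk2 (0.75 log2) and Nefl (0.74 log2). For Arpp21, Ppp3r1 and Nefl the groups overlapped, and for all but Ncdn the wild type signal lay between 5.76 and 6.86 log2, in the dim range. Exon usage belongs to the same contrast as the choice of genes, and these values are a description too.

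**Figure D4:**
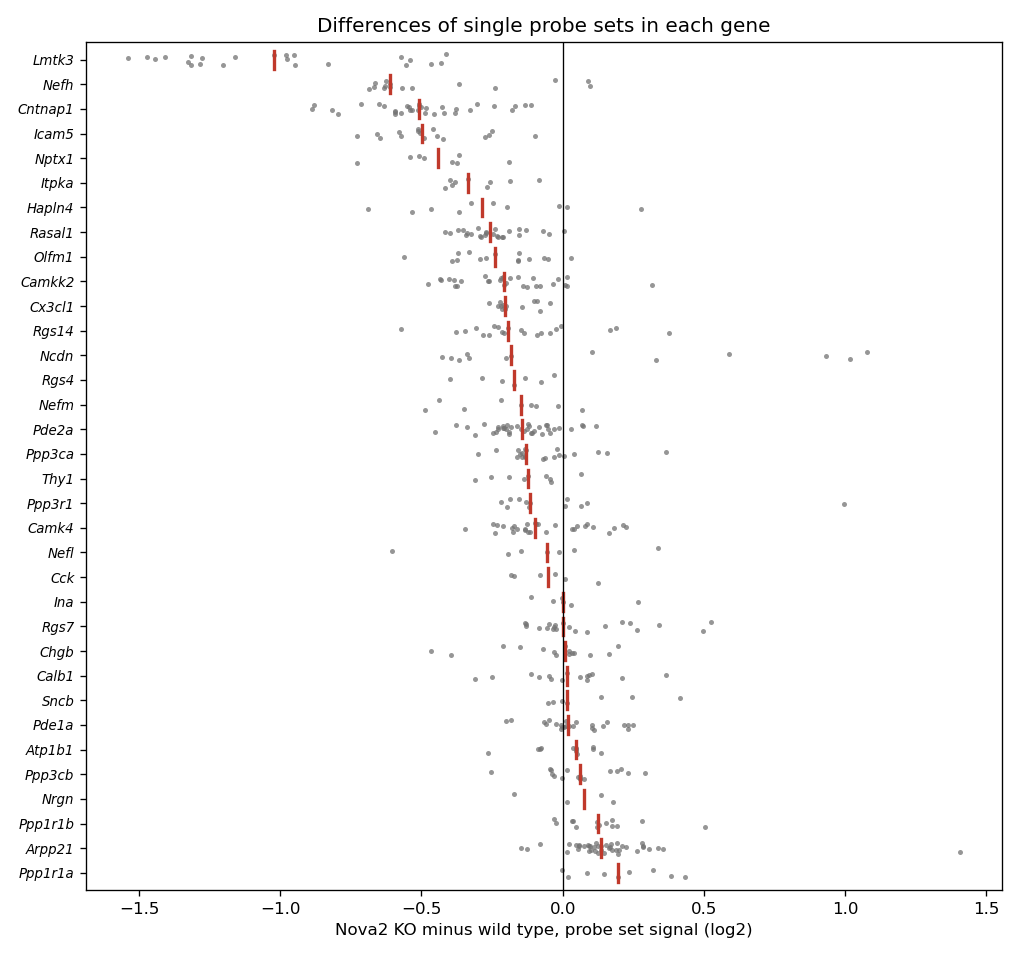
Difference between Nova2 KO and wild type (log2) of every kept probe set (points) in each of the 34 measured members, ordered by the median over probe sets (red bar). Lmtk3, Cntnap1, Icam5, Nptx1, Itpka, Cx3cl1 and Rgs4 lie wholly below 0, and Ncdn spans -0.43 to 1.08 log2.

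Over all members, 376 of 555 kept probe sets were below 0 (67.7%), against 47.6% of the probe sets that named 1 gene in the table as a whole. In 76 member probe sets all Nova2 KO values lay below all wild type values, a share of 13.7%, where 2.31% of all such probe sets did so. Probe sets of 1 gene share its RNA and are not independent. In 7 members every probe set lay below 0, and in 16 at least 80% did. In 3 members at most 20% did, and the other 15 lay between.

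Relatives of the members were counted as a whole from 17 further lists. Of their 132 measured genes, 77 were below 0, with a median of -0.027 log2 against 0.021 log2 over all genes. None passed in limma, and 15 had an unadjusted p under 0.05, 12 of them lower in Nova2 KO. Of all genes, 3.72% were lower and 7.86% higher at that level. Genes of the growing neuron were set beside them, in a list that, like the others, was chosen with earlier results of these data known. All 16 measured lay above 0, where 44.6% of all genes lay below 0. An unadjusted p under 0.05 was reached by 8 of them, where 7.86% of all genes were higher at that level. The median was 0.24 log2, and the list had a mean level of 11.10 to 11.20 log2 in Nova2 KO against 10.86 to 10.91 log2 in wild type. Dcx, or doublecortin, rose by 0.81 log2 in limma with an SE of 0.11 (adjusted p = 0.0133), at 10.7 ± 0.097 log2 in Nova2 KO and 9.89 ± 0.20 log2 in wild type (SD, n = 4 each). No other gene of that list passed, and 0.0917% of all genes were called higher. Given how the list was chosen, its counts are a description and carry no weight as evidence. Dpysl3 was at 0.45 log2 (SE 0.096, adjusted p = 0.131) and Dpysl5 at 0.35 log2 (SE 0.091, adjusted p = 0.205). Dcx missed the threshold without Nova2 KO 1, without Nova2 KO 3, without wild type 1 and with the mean over probe sets, where limma adjusted p ran from 0.0557 to 0.0939.

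**Figure D5:**
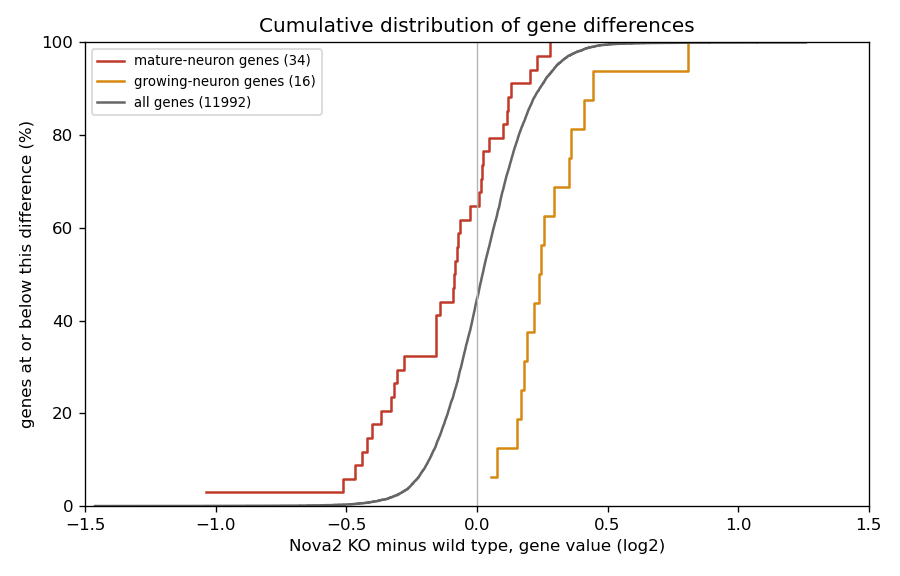
Cumulative share of genes (%) by the difference between Nova2 KO and wild type (log2) for the 34 mature-neuron genes, the 16 growing-neuron genes and all 11992 genes. The mature-neuron curve lies left of all genes, with a median of -0.086 log2, and the growing-neuron curve lies to the right, with a median of 0.24 log2. Both lists were chosen with earlier results of these data known.

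Markers of the remaining cell types were counted in the same way. Endothelial and blood markers were below 0 in 6 of 6 measured genes (median -0.13 log2) and averaged 7.52 to 7.76 log2 in Nova2 KO and 7.70 to 7.95 log2 in wild type. Microglial markers were below 0 in 5 of 6 (median -0.11 log2) and astrocyte markers in 5 of 7 (median -0.046 log2). Progenitor and cell cycle markers were below 0 in 1 of 4 (median 0.061 log2). None of these genes passed in limma, and 2, 1, 0 and 0 of them, in this order, had an unadjusted p under 0.05. Their part in the members' values was not tested.

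The promoters of the members were read from RefSeq sequences of build GRCm38.p6, which held 21 of the 36 genes. Acan, without a gene value, was 1 of them, and the counts that follow are over the other 20. The window was the 250 bases before the start of transcription, some genes had several starts, and motifs were searched on both strands. A gene was counted if the window of any of its starts held the motif. The 20 members had 39 windows, against 12383 windows for the 9581 genes with a gene value and a promoter. Members thus had more windows per gene, and the shares below are not adjusted for this. An EGR site, spelled GCGGGGGCG and named for a family of activity-dependent zinc finger factors, was present in 6 of the 20 genes (30%). It occurred in 5.92% of the 9581 genes that had both a gene value and a promoter, and in 2.93% of all 27025 genes. The 6 were Olfm1 (-0.28 log2), Pde2a (-0.14 log2), Ncdn (-0.026 log2), Ina (0.10 log2), Chgb (0.13 log2) and Ppp3cb (0.21 log2), so genes with the site lay on both sides of 0. A GC box, GGGCGG, was present in 15 of 20 (75%) against 63.4% of the 9581 genes, and in places overlaps the EGR site. The full cyclic AMP response element TGACGTCA was found in 1 member, Chgb, and in 2.97% of the 9581 genes. Of the other motifs searched, a TATA box (TATAAA) was found in 15% of the 20 members and 8.32% of the 9581 genes. A CCAAT box was found in 50% and 39.8%, and an E box (CACGTG) in 10% and 9.99%. Median GC content was 58.8% over the 39 windows of the 20 members and 60.0% over the 12383 windows of the 9581 genes. These medians are over windows, so genes with several starts, such as Arpp21 and Pde1a, count several times. The following are the windows of Lmtk3, the member with the largest difference, and of 4 members with an EGR site that lay below or above wild type, written 5′ to 3′ with cyclic AMP response elements, EGR sites and GC boxes in capitals. They lie at chr7:45785097-45785346 (plus strand; the second of its starts), chr2:28192843-28193092 (plus strand), chr19:47014431-47014680 (plus strand), chr2:132781392-132781641 (plus strand) and chr14:20546574-20546823 (minus strand).
Lmtk3: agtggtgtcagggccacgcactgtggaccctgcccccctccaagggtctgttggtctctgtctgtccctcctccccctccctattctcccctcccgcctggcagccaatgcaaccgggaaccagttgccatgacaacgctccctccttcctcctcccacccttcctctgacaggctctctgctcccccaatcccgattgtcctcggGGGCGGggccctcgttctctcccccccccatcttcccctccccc
Olfm1: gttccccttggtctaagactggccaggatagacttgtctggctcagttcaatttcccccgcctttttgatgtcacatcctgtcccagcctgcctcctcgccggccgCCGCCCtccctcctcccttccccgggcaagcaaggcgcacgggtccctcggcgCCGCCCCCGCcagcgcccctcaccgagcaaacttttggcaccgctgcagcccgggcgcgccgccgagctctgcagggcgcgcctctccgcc
Ina: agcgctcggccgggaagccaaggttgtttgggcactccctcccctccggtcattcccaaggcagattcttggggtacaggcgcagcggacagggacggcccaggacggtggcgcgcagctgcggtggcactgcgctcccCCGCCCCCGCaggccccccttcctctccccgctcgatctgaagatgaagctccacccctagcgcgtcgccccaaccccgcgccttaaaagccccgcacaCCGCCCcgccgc
Chgb: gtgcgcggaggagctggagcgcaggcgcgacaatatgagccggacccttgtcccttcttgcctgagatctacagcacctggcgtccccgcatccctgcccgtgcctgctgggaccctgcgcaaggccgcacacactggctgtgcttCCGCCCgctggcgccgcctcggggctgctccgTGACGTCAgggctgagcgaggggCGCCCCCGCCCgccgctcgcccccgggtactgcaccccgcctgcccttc
Ppp3cb: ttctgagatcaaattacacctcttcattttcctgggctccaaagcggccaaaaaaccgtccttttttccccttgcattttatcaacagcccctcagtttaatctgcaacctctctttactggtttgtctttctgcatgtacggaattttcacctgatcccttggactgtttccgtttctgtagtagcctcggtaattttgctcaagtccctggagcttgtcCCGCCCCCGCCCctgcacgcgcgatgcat
The other start of Lmtk3, not shown, held none of the marked motifs. Olfm1 too had a further start that is not shown, with GC boxes but no EGR site. A match of letters describes these windows and does not show that a factor binds there.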

How the data were processed

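Total RNA from 8 cortices was hybridised to exon arrays, 1 per mouse. The deposited log2 values, 1 per probe set and array, had been made by the authors with PLIER, per the submitters' processing notes (version not given). Further normalization and genome build are not given in the sources used here, and values were left as deposited. Of 391597 probe sets, 228454 named 1 gene in the platform annotation, and 2203 older symbols were updated. A probe set was kept if its mean across the 8 arrays was above the 25th percentile (5.86 log2). Gene values needed 3 kept probe sets and exon usage needed 5. Of 578 member probe sets, 23 were not kept. All genes were fitted with lmFit and eBayes of limma 3.58.1 in R 4.3.3 for the Nova2 KO effect (two-sided tests, adjusted by Benjamini-Hochberg, threshold 0.05). The fit was tested on simulated data. Plots used matplotlib 3.10.9.

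All 36 members were named. Values of every array were printed for the 14 with the largest difference and for those opposite in sign to the list's median. Relatives were named by their p, at most 3 per list. Members and lists were chosen with earlier results of these data known. The labels do not say whether mice shared litters. The number of arrays limits the precision. Other settings changed the filter, the summary, the scaling, the offset and the arrays used.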

Additional observations from a re-analysis of the deposited data

Results flagged for a closer look

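Of 68 groups of 4 arrays examined, 3 had 1 array far from the others, where chance flags about 1 in 20 groups. Nptx1 was at 9.40 log2 on wild type 4, while the other wild type arrays lay between 9.71 and 9.76 log2, and without that array its difference was -0.55 log2. Atp1b1 was at 12.63 log2 on Nova2 KO 1, against 12.50 to 12.52 log2 on the remaining Nova2 KO arrays, and without that array its difference was 0.016 log2. Arpp21 was at 10.62 log2 on Nova2 KO 3, against 10.49 to 10.50 log2 on the remaining Nova2 KO arrays, and without that array its difference was 0.086 log2.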

How the results depend on the processing

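The median difference of the members stayed between -0.15 log2 (no filter) and -0.071 log2 (without Nova2 KO 3) over 18 other settings, and the number of members below 0 between 21 and 25. Signs held in every setting for 27 of the 34 members. The count of genes past the threshold, 25, was 13 with median centring, 54 with the array median as a covariate and 11 without both arrays numbered 4. Leaving out 1 array gave 6 to 16 genes. Members past the threshold, 1 as reported, numbered 2 with the covariate (Cntnap1 and Lmtk3) and 0 to 1 without single arrays, with 0 without wild type 1. Exon usage probe sets past the threshold, 26, numbered 15 without a filter, 2 without both arrays numbered 4 and 10 to 16 without single arrays. With a replicate block made from the numbers in the titles, 80 genes, 3 members (Cntnap1, Lmtk3 and Nptx1) and 4 exon usage probe sets passed. Same-numbered arrays correlated at 0.14, 0.33, 0.024 and 0.57 in their deviations from the group means, and Nova2 KO 2 and Nova2 KO 4 correlated best with their own number. Because 1 pair lay under 0.1 and the labels give no shared litter or day, the numbers were not taken as pairs. Over members and settings, 586 single values kept their sign and their side of the threshold and 22 crossed 0. Signals at the floor limit what dim probe sets can show. The cause of these shifts was not tested.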

Other observations

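In 2 members a single dim probe set stood far from the rest of its gene. Probe set 5002258 of Arpp21 read 7.42, 6.55, 7.82 and 6.88 log2 in Nova2 KO and 6.11, 6.85, 5.20 and 4.88 log2 in wild type, a difference of 1.41 log2 with overlapping groups. Probe set 4915703 of Ppp3r1 read 6.53, 6.77, 7.02 and 6.81 log2 in Nova2 KO and 6.66, 7.06, 5.43 and 4.00 log2 in wild type. Its difference of 0.997 log2 rested on wild type 3 and wild type 4, of which the last lay at the floor.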
